A study of Mus musculus with 27 samples.

Results

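The exocrine pancreas acinar genes are 36 genes that make or control the digestive secretion of the pancreas, followed here in spleen RNA. They were named one by one (8 trypsinogens or their inhibitor, 10 other proteases, 6 lipases or their cofactor, 3 amylases or ribonuclease, 6 proteins of the secretory granule and secretory pathway, 3 transcription factors) and found on the array by symbol, accession or older synonym. Of the 36, 33 had at least 1 probe (43 probes in all) and all 33 passed the filter on dim probes, among 25235 genes tested. Prss1, Try4 and Try10 had no probe under these names.

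The study compared spleens of female NOD mice (NOD/LtJ), a strain that develops autoimmune diabetes, with spleens of female NOD.B10 mice (NOD.B10Sn-H2b/J), which carry the H2b haplotype on the NOD background and served as controls. NOD mice were 10 days or 4, 12 or 20 weeks old (5 arrays each), 16 weeks old (4 arrays) or 8 weeks old (3 arrays), with no treatment named, and every NOD sample carries the label diabetic, the 10-day ones included. Each of the 27 arrays held a NOD sample in the green dye (Cy3) and NOD.B10 spleen RNA, the reference, in the red dye (Cy5), and the dyes were never exchanged, so a probe's dye bias and a strain difference cannot be told apart. NOD.B10 controls are described at 10 days and 20 weeks of age alone. The sources do not say which of them stood opposite each age, or whether an array held 1 mouse or a pool, so the tests measure the spread between arrays, which in the reference may be technical.

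Acinar cells are the main cells of the pancreas and release digestive enzymes, most of them as inactive precursors, from zymogen granules into the pancreatic duct. Ptf1a and Rbpjl, 2 subunits of the complex PTF1, together with Bhlha15 (also called Mist1), hold the acinar gene program, and PTF1 binds an E-box next to a TGGGAA-like box. The spleen itself has no acinar cells, although the tail of the pancreas reaches its hilum. Plasma cells, which the spleen does hold, are known to use Bhlha15 as well.

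To show what the promoters of these genes have in common, the window from 250 bases before to 50 bases after the start of each gene was read from RefSeq (assembly GRCm38.p6), which held a window for 29 of the 36 genes (30 windows). An E-box, CACCTG or CAGCTG on either strand, was in 21 of 30 windows (70%) against 32.95% of all 32851 windows. The letters TGGGAA on either strand were in 18 of 30 (60%) against 25.56%, TATAAA on the gene's strand in 11 of 30 (36.67%) against 8.319%, and an E-box together with TGGGAA in 11 of 30 (36.67%) against 8.642%. An E-box followed directly by TGGGAA can share the letters TG with it, and CAGCTG is its own reverse complement. A match describes the letters and shows no binding. The windows of 4 secreted enzymes that varied together, and of the factor Rbpjl, which varied less than these enzymes in NOD, are printed because each holds both boxes. Capitals mark E-boxes, TGGGAA or its reverse complement TTCCCA, and TATAAA.
Prss2, chr6:41521526-41521825, plus strand: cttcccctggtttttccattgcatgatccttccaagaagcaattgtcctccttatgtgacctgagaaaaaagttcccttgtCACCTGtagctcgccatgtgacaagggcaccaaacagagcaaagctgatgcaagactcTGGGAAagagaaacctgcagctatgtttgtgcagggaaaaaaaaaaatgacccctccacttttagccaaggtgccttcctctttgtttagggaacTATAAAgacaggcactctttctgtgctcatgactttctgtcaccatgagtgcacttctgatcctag
2210010C04Rik, chr6:41035460-41035759, minus strand: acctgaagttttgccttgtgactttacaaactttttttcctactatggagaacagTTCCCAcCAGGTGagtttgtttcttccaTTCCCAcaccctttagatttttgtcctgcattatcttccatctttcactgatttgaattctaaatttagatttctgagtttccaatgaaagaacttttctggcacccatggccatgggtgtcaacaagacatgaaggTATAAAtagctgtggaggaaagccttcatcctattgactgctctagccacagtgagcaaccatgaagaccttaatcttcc
Cel, chr2:28563354-28563653, minus strand: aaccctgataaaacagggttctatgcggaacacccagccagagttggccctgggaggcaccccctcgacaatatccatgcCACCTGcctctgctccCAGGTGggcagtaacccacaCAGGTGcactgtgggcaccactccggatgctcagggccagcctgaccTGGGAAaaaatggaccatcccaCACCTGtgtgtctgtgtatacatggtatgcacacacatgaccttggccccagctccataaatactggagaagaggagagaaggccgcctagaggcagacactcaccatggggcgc
Ctrl, chr8:105933813-105934112, minus strand: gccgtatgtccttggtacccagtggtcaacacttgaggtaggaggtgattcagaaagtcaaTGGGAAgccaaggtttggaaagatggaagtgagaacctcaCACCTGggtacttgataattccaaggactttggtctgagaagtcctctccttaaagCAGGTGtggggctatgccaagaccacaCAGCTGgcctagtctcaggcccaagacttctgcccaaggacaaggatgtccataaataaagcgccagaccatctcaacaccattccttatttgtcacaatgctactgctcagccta
Rbpjl, chr2:164402944-164403243, plus strand: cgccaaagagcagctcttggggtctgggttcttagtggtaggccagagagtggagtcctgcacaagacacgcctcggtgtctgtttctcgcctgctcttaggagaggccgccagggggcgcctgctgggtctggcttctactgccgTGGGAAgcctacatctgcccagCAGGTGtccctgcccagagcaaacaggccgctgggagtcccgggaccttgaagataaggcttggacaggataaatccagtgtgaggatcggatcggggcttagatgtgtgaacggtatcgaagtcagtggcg
In the Prss2 window the E-box begins at position -169 and TGGGAA at -111 from the start of the gene, and TATAAA begins at -16. Ctrl holds 3 E-boxes and Cel 4, so the number of boxes was not the same even among these enzymes.

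Levels below are log2 processed signals of a dye minus that dye's 75th percentile on the array, so 0 is the level of the 75th percentile and 1 unit is a 2-fold step; they compare arrays for 1 gene and not genes with each other. Arrays had median spot signals of 155.3 to 513.4 (NOD) and 159.7 to 502.3 (reference), with 65% to 94.22% and 51.8% to 83.12% of spots well above background. The spleen label held: at least 16 of 17 spleen genes were well above background on all arrays of each age in both dyes, Spic, a factor of red pulp macrophages, among them (NOD level 3.54 to 6.25). The array of 10 days replicate 5 stood apart, where the summed liver genes were at 9.16 in the NOD dye against a median of 0.12 over the 27 arrays. Several results that rest on it are therefore given with and without it. In bulk RNA, fewer cells of a type and less RNA per cell cannot be told apart.

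In the NOD dye the acinar genes differed widely from array to array at the same age. In the reference dye they varied less within an age and differed between ages. The median level of the 33 genes ran from -1.99 to 5.61 over the 5 NOD samples of 10 days, a 194.6-fold range, and from 0.02 to 0.67 in the reference on the same arrays. Without replicate 5 the 10-day NOD values ran from -1.99 to 3.1, a 34.06-fold range. At 20 weeks it ran from -0.77 to 5.71 in NOD, an 88.75-fold range, and from 3.05 to 3.55 in the reference. At every age the range of this median was wider in NOD: 5.84 against 0.55 log2 units at 4 weeks, 2.09 against 0.99 at 8 weeks, 3.83 against 0.62 at 12 weeks and 4.17 against 0.37 at 16 weeks. For some single genes the reference range was the wider one at 8 weeks, among them Gp2 (0.20 in NOD against 1.45) and Clps (1.21 against 1.53). Single genes could also span more in the reference than their median did, such as 2.32 log2 units for Ctrb1 at 10 days and 2.04 for Sycn at 8 weeks.

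**Figure D1:**
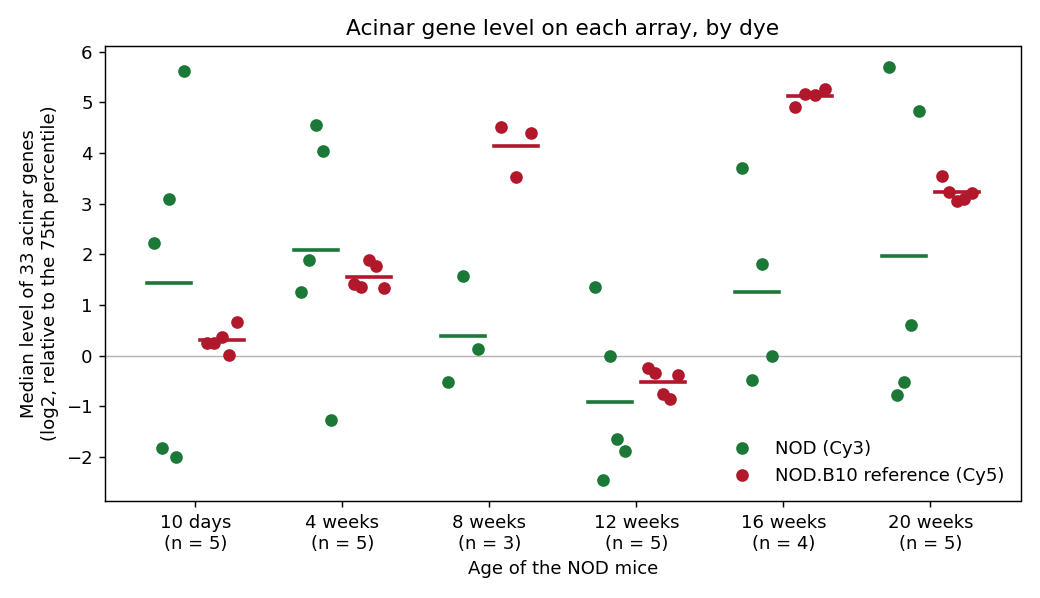
Median level of the 33 acinar genes on each array (log2, relative to the dye's 75th percentile) by age, with NOD samples in green and the NOD.B10 reference in red; each point is 1 array and each bar the mean of its age. NOD points run from -2.46 to 5.71 and are spread at each age, while reference points lie close together within an age and at separate heights between ages.

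The high NOD samples were few. Medians above 4 were found on replicate 5 of 10 days (5.61), replicates 3 and 4 of 4 weeks (4.56 and 4.03) and replicates 1 and 5 of 20 weeks (5.71 and 4.83). Arrays low in NOD, under -1.5, were replicates 2 and 4 of 10 days (-1.81 and -1.99) and replicates 2, 4 and 5 of 12 weeks (-2.46, -1.63 and -1.88). No 8-week NOD sample passed 1.57. All arrays of 4, 16 and 20 weeks were read on 1 scan day per age, so their ranges above lie within a day. At 10 days the 3 arrays that shared a scan day spanned 4.91 log2 units in NOD and 0.12 in the reference. At 12 weeks 3 arrays of 1 day spanned 3.83 and 0.15, and 2 arrays of another day 1.64 and 0.094.

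Across the 33 genes the within-age SD over 27 arrays had a median of 2.47 in NOD (0.51 to 3.97) and 0.43 in the reference (0.18 to 0.66). Over 24504 genes with a value on every array the medians were 0.54 and 0.40. The NOD SD was the larger one for 33 of 33 acinar genes and for 90.69% of all genes. Without 10 days replicate 5 the NOD medians were 2.34 for the 33 genes and 0.53 for all genes. An SD over 1 in NOD was found for 84.85% of the acinar genes and 7.313% of all genes. Of the 20 genes with the largest NOD SD on the array, 17 were acinar genes of the 36, of the first 50, 22, and of the first 100, 25; Reg1, a further acinar product, also stood among the first 20. Without 10 days replicate 5, 16 of the first 20 were acinar genes of the 36.

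**Figure D2:**
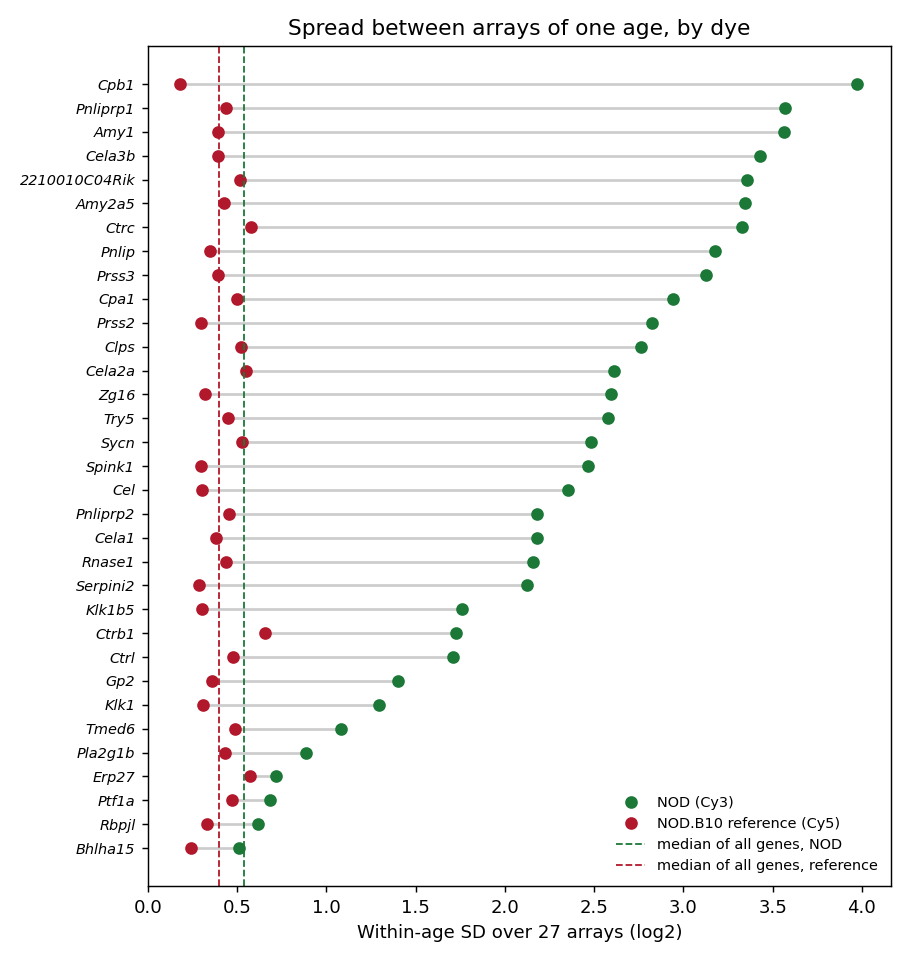
SD between arrays of the same age (log2, pooled over 27 arrays) for each of the 33 acinar genes, with NOD in green and the NOD.B10 reference in red; dashed lines give the medians of all genes. Cpb1 lies at 3.97 in NOD and 0.18 in the reference, and the 3 transcription factors lie at the bottom, between 0.51 and 0.68 in NOD.

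A limma F test over the 6 ages called none of the 33 genes in the NOD dye at an adjusted p under 0.05, where 67.9% of all genes were called; 1 of 33 had an unadjusted p under 0.05, and between 0 and 3 passed under the alternative settings. The lowest adjusted p was 0.065, that of Bhlha15. In the reference dye the same test called 33 of 33, against 78.6% of all genes, with adjusted p from 8.4e-21 (Cpb1) to 0.036 (Ptf1a). The SD between the 6 age means had a median of 1.27 in NOD and 2.21 in the reference, so in NOD the age means were spread less than the arrays of 1 age.

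The order of the ages in the reference was shared by most of the genes. Of the 33, 32 had their highest reference mean at 16 weeks and 1 at 8 weeks, while 25 had their lowest at 12 weeks, 6 at 10 days and 2 at 4 weeks. In NOD 28 had their lowest mean at 12 weeks, 4 at 10 days and 1 at 20 weeks. The 12-week NOD medians (-2.46 to 1.37) overlapped those of every other age, and the F test in NOD called none of the 33. The highest NOD mean was at 4 weeks for 17, at 20 weeks for 9, at 10 days for 4 and at 16 weeks for 3. These counts of highest and lowest ages were not set against all genes. The genes moved together from array to array, so they do not count as independent. The age splits given next follow the order of these same reference values, so their counts describe the genes and test nothing. For 24 of 33, every reference value at 8, 16 and 20 weeks was above every reference value at 10 days, 4 and 12 weeks, as for 0.464% of all genes. The reference values at 16 weeks were all above those at 12 weeks for 32 of 33 genes, Ptf1a being the exception, and for 4.99% of all genes. Fold differences of the means there were 114.5 for Cela2a, an elastase, 98.18 for 2210010C04Rik and 91.66 for Cpb1, but 2.38 for Rbpjl and 1.85 for Bhlha15. Arrays of 12 and 16 weeks shared a scan campaign (3 and 4 arrays), and within it the reference of 31 of 33 differed between these ages, against 1.26% of all genes. A scan campaign is a run of scan days close in time. Within the others it was 19 of 33 (campaign 1, 1 array of 10 days and 5 of 4 weeks, all genes 21%), 30 of 33 (campaign 2, 1 array of 8 weeks and 2 of 12 weeks, 11.2%) and 29 of 33 (campaign 4, 3 arrays of 10 days, 1 of 8 weeks and 5 of 20 weeks, 32.9%). An age with 1 array was assumed to vary like the others. In the NOD dye the same tests called 1 of 33 in campaign 1 (all genes 0.722%), none in campaigns 2 and 3 (all genes 0%) and 1 in campaign 4 (all genes 15.4%).

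**Figure D3:**
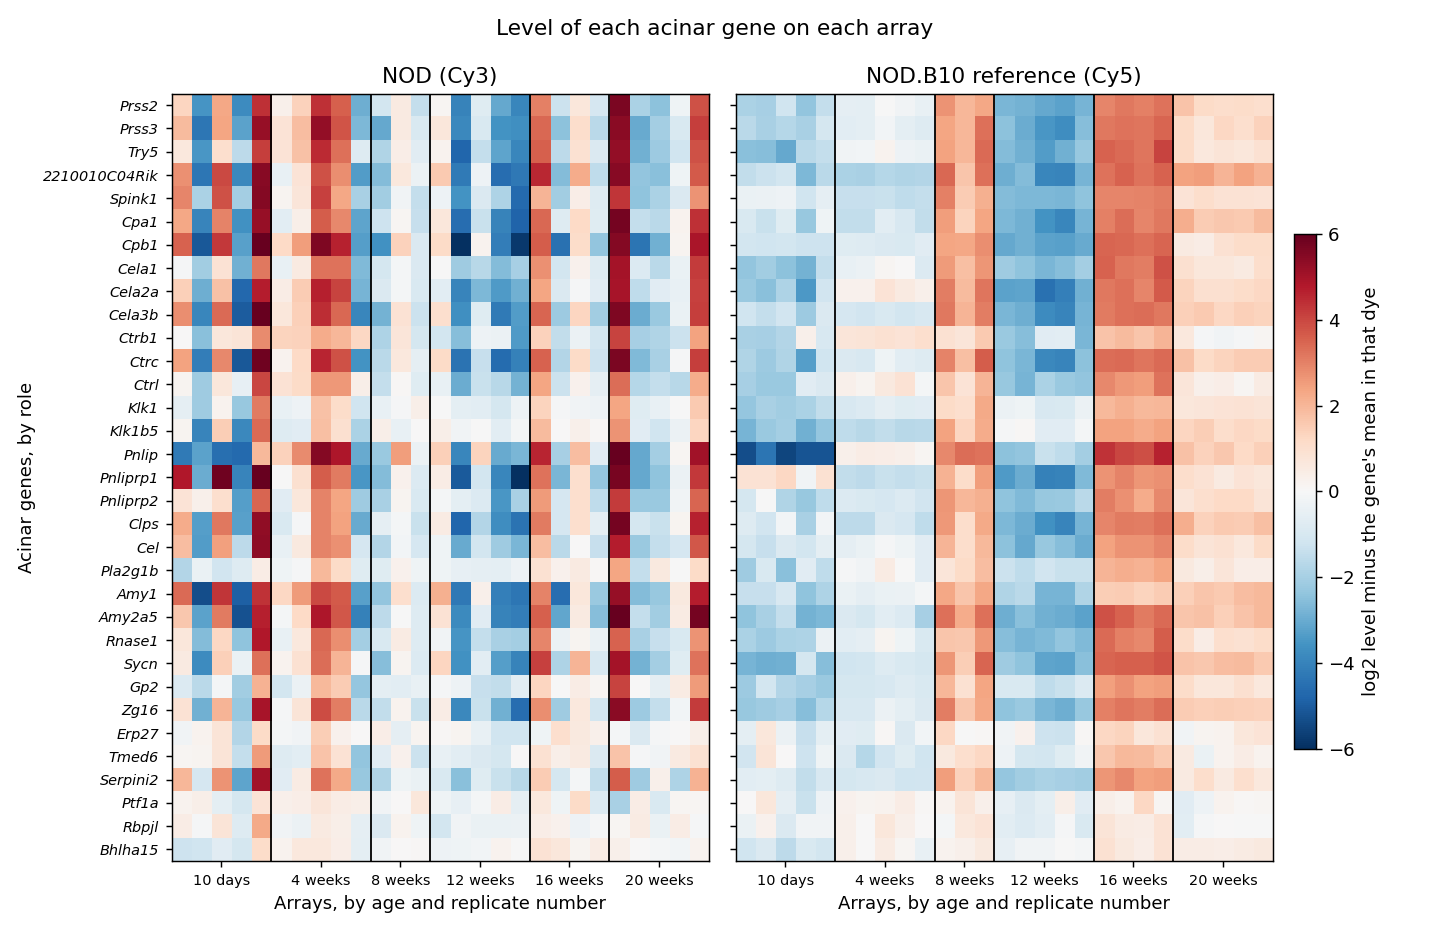
Level of each of the 33 acinar genes (rows, by role) on each of the 27 arrays (columns, by age and replicate number) in NOD (left) and the NOD.B10 reference (right), as log2 level minus the gene's own mean in that dye. Most rows change together from array to array in NOD, also within an age. The arrays of 10 days replicate 5 and 20 weeks replicate 1 are red in most rows there. In the reference, blocks of 1 colour follow the ages. The transcription factor rows at the bottom stay pale in both.

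The trypsinogens, precursors of the protease that activates the other enzymes, and their inhibitor Spink1 were measured by 5 of 8 genes. 2210010C04Rik, a trypsinogen, was in the NOD dye at 5.79, -1.27, 7.03, -0.79 and 8.5 at 10 days and at 2.63, 3.87, 6.89, 5.83 and -0.27 at 4 weeks. It stood at 0.44, 3.69 and 2.71 at 8 weeks and at 4.62, -1.17, 2.76, -1.49 and -1.20 at 12 weeks. At 16 weeks the values were 7.60, 0.45, 5.28 and 1.55, and at 20 weeks 8.52, 0.69, 0.55, 2.80 and 6.73. High and low arrays thus occurred side by side at nearly all ages. The reference ran from 2.08 to 3.66, 2.81 to 3.02, 6.41 to 8.21, 0.79 to 2.17, 8.01 to 8.27 and 6.77 to 7.29 at the same 6 ages. NOD lay below all reference values at 8 and 16 weeks and overlapped them at the other ages. Its ratio was 4.12-fold lower over the 6 ages (log2 -2.04 ± 0.63 SE, limma adjusted p = 0.0071, 0.095 with the scan campaign as a block, lower on 18 of 27 arrays).

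Prss3, the mouse mesotrypsin gene, read 4.45, -1.81, 4.90, -0.70 and 7.76 in NOD at 10 days and 3.34, 4.37, 7.83, 6.32 and -0.14 at 4 weeks. At 8 weeks it read -0.54, 3.06 and 1.61, and at 12 weeks 3.20, -1.35, 1.60, -1.05 and -1.15. The 16-week values were 5.97, 0.08, 3.58 and 0.90, and those of 20 weeks 7.94, -0.48, 0.47, 1.61 and 6.68. The same arrays were high and low as for 2210010C04Rik. Its reference ran from 1.96 to 2.85, 3.14 to 3.74, 5.89 to 7.21, 0.19 to 1.44, 7.07 to 7.41 and 4.59 to 5.30 over the 6 ages, and its ratio was 3.37-fold lower (log2 -1.75 ± 0.56, adjusted p = 0.0087, 0.10 with the scan campaign as a block, lower on 16 of 27 arrays). All 5 measured genes of this role were lower over all ages (log2 -2.04 to -1.35), Prss2, Try5 and Spink1 being the others. With the scan campaign as a block none of the 5 calls was kept (adjusted p = 0.093 to 0.17). Trypsinogens are close paralogs, and cross-hybridisation between them was not tested.

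Of 10 other proteases, chymotrypsins, elastases, carboxypeptidases and kallikreins, all were measured and 5 were lower over all ages. Ctrc, chymotrypsin C, was in NOD at 5.76, -0.77, 6.22, -1.75 and 9.19 at 10 days and at 3.55, 4.54, 7.91, 7.2 and -0.23 at 4 weeks. The 8-week values were 1.73, 3.96 and 2.82 and the 12-week values 4.48, -1.1, 1.99, -1.28 and -0.69. It had 6.91, 1.59, 4.49 and 2.13 at 16 weeks and 8.99, 0.70, 1.42, 3.28 and 7.52 at 20 weeks. NOD was below every reference value at 8 and 16 weeks: the reference ran from 1.63 to 3.74, 3.96 to 4.67, 6.74 to 8.56, 0.96 to 2.50, 8.14 to 8.34 and 6.08 to 6.66. On 3 of the 4 arrays of 16 weeks the Ctrc reference spot was saturated. The ratio was 3.75-fold lower over all ages (log2 -1.91 ± 0.58, adjusted p = 0.0063, 0.068 with the scan campaign as a block, lower on 17 of 27).

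For Cela3b, an elastase, NOD values were 5.77, -0.91, 6.37, -1.99 and 9.22 at 10 days and 3.69, 4.44, 7.43, 6.44 and -0.92 at 4 weeks. They were 0.18, 3.88 and 1.73 at 8 weeks and 4.02, -0.67, 2.29, -1.25 and -0.36 at 12 weeks. At 16 weeks they were 6.49, 0.84, 4.29 and 0.90, and at 20 weeks 8.59, 0.02, 0.78, 2.59 and 7.13. Replicate 5 of 10 days was the highest of all 27. Reference values of Cela3b ran from 2.32 to 3.64, 3.38 to 3.60, 6.58 to 7.70, 0.55 to 1.75, 7.66 to 7.85 and 5.74 to 6.07, and the ratio was 3.73-fold lower over all ages (log2 -1.90 ± 0.62, adjusted p = 0.011, 0.099 with the scan campaign as a block, lower on 16 of 27 arrays).

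Cpb1, carboxypeptidase B1, had the widest contrast between the dyes and is given although the naming rule left it out; it was picked after its values were seen. Its NOD level ran from -3.72 (12 weeks replicate 2) to 9.15 (10 days replicate 5), a 7500-fold range, or 3436-fold without 10 days replicate 5, with a within-age SD of 3.97, while the reference SD was 0.18. Reference values were 3.20 to 3.37 at 10 days, 3.54 to 3.80 at 4 weeks, 6.81 to 7.25 at 8 weeks, 1.22 to 1.59 at 12 weeks, 7.76 to 7.97 at 16 weeks and 4.91 to 5.57 at 20 weeks. None of these 6 ranges overlap. Its ratio was 5.33-fold lower over all ages (log2 -2.42 ± 0.74, adjusted p = 0.0068, 0.096 with the scan campaign as a block). The kallikreins Klk1 and Klk1b5, which are also salivary gland products, varied less, with NOD ranges of 5.39 and 7.37 log2 units (4.68 and 6.65 without 10 days replicate 5), and had ratios of -0.35 and -0.59 that did not pass (adjusted p = 0.19 and 0.11). The 2 probes of Klk1 correlated at r = 0.44 in NOD.

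All 6 lipases and cofactor genes were measured, and 4 were lower over all ages. Clps, colipase, the cofactor that anchors pancreatic lipase to fat droplets, was in NOD at 4.01, -1.48, 4.96, -1.47 and 7.13 at 10 days and at 0.88, 1.75, 4.76, 4.21 and -1.22 at 4 weeks. It read 1.25, 1.68 and 0.47 at 8 weeks and 2.31, -2.96, 0.05, -1.92 and -2.62 at 12 weeks. The 16-week values were 4.91, 0.78, 2.81 and 1.23, and the 20-week values 7.53, 0.73, 0.46, 1.96 and 6.41. At 8 weeks the 3 NOD samples were close to each other and all below the reference. The Clps reference ran from 0.92 to 2.71, 1.28 to 2.0, 3.94 to 5.47, -1.07 to 0.16, 5.79 to 6.17 and 4.25 to 5.06, and the ratio was 2.56-fold lower (log2 -1.36 ± 0.47, adjusted p = 0.014, 0.13 with the scan campaign as a block, lower on 17 of 27).

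Cel, carboxyl ester lipase, read 3.65, -1.54, 4.26, 0.24 and 7.14 in NOD at 10 days and 1.33, 2.36, 4.76, 4.54 and 0.78 at 4 weeks. It read 0.03, 1.61 and 0.79 at 8 weeks and 1.53, -1.24, 0.67, -0.32 and -0.97 at 12 weeks. Values were 3.65, 0.17, 1.81 and 0.40 at 16 weeks and 6.52, -0.44, 0.38, 0.78 and 5.52 at 20 weeks. The reference of Cel ran from 1.1 to 1.88, 1.77 to 2.39, 3.52 to 4.51, -0.61 to 0.19, 4.90 to 5.39 and 3.08 to 3.61. Its ratio of -0.98 ± 0.41 (adjusted p = 0.042, lower on 17 of 27) was just under the 2-fold limit for a call. At 16 weeks alone Cel passed, at -3.71 ± 1.05 (adjusted p = 0.0082).

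Pnlip, pancreatic lipase, and its relative Pnliprp1 went apart at the youngest age in both dyes; they were picked after their values were seen. Reference Pnlip was at -3.06, -2.13, -3.27, -2.96 and -2.94 at 10 days, well above background on 3 of 5 arrays, and at 2.34 to 2.66 at 4 weeks. Reference Pnliprp1 was at 3.36, 3.36, 3.77, 2.28 and 3.44 at 10 days and at 0.96 to 1.18 at 4 weeks, so it moved the other way and neither gene overlapped between these ages. In NOD, the arrays with high acinar levels at 10 days (replicates 1, 3 and 5) had Pnlip at -3.53, -3.82 and 2.65 and Pnliprp1 at 5.74, 6.76 and 8.62. The high 4-week arrays (replicates 3 and 4) had Pnlip at 6.20 and 5.56 and Pnliprp1 at 4.56 and 4.03. In suckling rodents the pancreas is known to make little Pnlip until weaning, while lipase-related proteins come earlier. Pnliprp2 was not well above background in any reference of 12 weeks. Pla2g1b, the pancreatic phospholipase, had a log2 ratio of -0.18 ± 0.15 over all ages (limma adjusted p = 0.30). As for all 33 genes, this value joined estimates of opposite sign at single ages. Pla2g1b was lower at 8 weeks (-1.51, limma adjusted p = 0.022) and 16 weeks (-1.78, adjusted p = 0.0011) and at 0.85 at 12 weeks. Its limma F test over ages had the lowest adjusted p of the 33 (0.00025).

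Amylases, which split starch, and the ribonuclease Rnase1 were all measured. Amy1 was in NOD at 8.36, -0.34, 9.28, 0.08 and 9.32 at 10 days and at 6.23, 7.51, 8.94, 8.63 and 1.74 at 4 weeks. It read 2.61, 5.96 and 4.13 at 8 weeks and 7.12, 0.67, 5.29, 0.85 and 0.62 at 12 weeks. Values of 7.97, 0.39, 5.67 and 2.72 followed at 16 weeks and 10.19, 2.36, 2.72, 5.55 and 9.67 at 20 weeks. Its spots were saturated in NOD on 5 arrays and in the reference on 12 of 27, namely on all arrays of 8, 16 and 20 weeks, so the ratio is only a bound there. The reference was at least 25.46-fold brighter than NOD at 8 weeks (adjusted p = 0.10) and at least 16.95-fold at 16 weeks (adjusted p = 0.058), taking saturated spots at their value. At 20 weeks NOD was saturated on 2 of 5 arrays as well. Reference Amy1 ran from 4.37 to 5.87 at 10 days, 6.25 to 6.67 at 4 weeks and 4.00 to 5.20 at 12 weeks. Its fold over all ages is not given because of the saturated spots, and it enters the counts of calls with those spots at their value. A further Amy1 probe, saturated in NOD on 1 array and in the reference on none, was lower in NOD on 17 of 27 arrays, with a mean log2 ratio of -1.74 over the arrays.

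The probe named Amy2, taken here as Amy2a5, cannot be told apart from the other Amy2 copies that share that older name. In NOD it read 3.28, -1.55, 4.75, -3.59 and 6.32 at 10 days and 1.53, 2.84, 6.51, 5.36 and -2.42 at 4 weeks. It read 0.09, 1.64 and 0.86 at 8 weeks and 2.52, -2.18, 0.98, -2.37 and -2.50 at 12 weeks. At 16 weeks it read 5.22, -1.47, 2.17 and -0.90, and at 20 weeks 7.95, 0.23, -0.45, 2.16 and 7.38. This probe was saturated on no array, in contrast to that of Amy1. Reference values ran from 0.02 to 1.40, 0.84 to 2.20, 5.05 to 6.14, -0.38 to 0.31, 5.96 to 6.65 and 4.27 to 4.75, and the ratio was 3.01-fold lower (log2 -1.59 ± 0.60, adjusted p = 0.024, 0.15 with the scan campaign as a block, lower on 17 of 27). A further Amy2a5 probe was well above background on no reference array and correlated with it at r = 0.17 in NOD. Cross-hybridisation between Amy1 and the Amy2 copies was not tested, so their probes may not read separate genes.

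The 6 genes of the granule and secretory pathway were all measured, and 2 of them, Sycn and Zg16, were lower over all ages. Sycn, syncollin, a zymogen granule protein, was in NOD at 3.33, -0.99, 4.21, 2.38 and 6.08 at 10 days and at 2.99, 3.71, 6.16, 4.84 and 2.73 at 4 weeks. It stood at 0.23, 2.94 and 1.96 at 8 weeks and at 4.07, -0.84, 2.14, -0.51 and -1.20 at 12 weeks. The 16-week values were 6.91, 0.91, 4.82 and 1.83, and those of 20 weeks 7.77, -0.04, 0.74, 2.06 and 6.05. The array of 10 days replicate 4, low for the trypsinogens, was not low for Sycn in either dye. Its reference ran from 0.94 to 2.85, 2.71 to 3.1, 5.36 to 7.4, 0.67 to 1.75, 7.36 to 7.65 and 5.46 to 5.80, and the ratio was 2.75-fold lower (log2 -1.46 ± 0.47, adjusted p = 0.010, 0.12 with the scan campaign as a block, lower on 16 of 27).

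Zg16, a lectin of the granule membrane, read 2.23, -1.52, 3.38, -0.93 and 6.30 in NOD at 10 days and 1.26, 2.10, 5.28, 4.40 and -0.28 at 4 weeks. It read -0.14, 1.57 and -0.01 at 8 weeks and 1.77, -2.55, 0.0017, -1.53 and -3.21 at 12 weeks. The values were 4.15, -0.78, 1.96 and 0.25 at 16 weeks and 6.77, -0.83, -0.10, 1.16 and 5.54 at 20 weeks. Its reference ran from -0.17 to 0.67, 1.39 to 2.0, 4.00 to 5.46, -0.55 to 0.14, 5.39 to 5.73 and 3.75 to 3.87, with no overlap between NOD and reference at 8 and 16 weeks. The ratio was 2.57-fold lower (log2 -1.36 ± 0.48, adjusted p = 0.016, 0.18 with the scan campaign as a block, lower on 17 of 27). Gp2, a granule membrane glycoprotein, and Serpini2, a pancreatic serpin, had ratios of -0.43 and -0.80 that did not pass (adjusted p = 0.17 and 0.087). The endoplasmic reticulum protein Erp27 was dim, well above background on 12 of 27 arrays in NOD and 5 in the reference, and on none in either dye at 20 weeks.

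The 3 transcription factors had the lowest within-age SDs in NOD of the 33 genes (0.51 to 0.68, the next being Erp27 at 0.72), and none of them was called lower. The median SD of all genes in NOD was 0.54, so these factors were low only beside the other acinar genes. Rbpjl was in NOD at -0.69, -1.16, -0.36, -1.87 and 1.18 at 10 days and at -1.31, -1.45, -0.56, -0.78 and -1.64 at 4 weeks. It stood at -1.97, -0.88 and -1.35 at 8 weeks and at -2.20, -1.33, -1.49, -1.49 and -1.47 at 12 weeks. The 16-week values were -0.69, -0.85, -1.41 and -1.20, and the 20-week values -1.01, -0.63, -1.51, -0.68 and -1.16. Replicate 5 of 10 days alone was above 0. Its reference ran from -2.57 to -1.41, -1.66 to -1.02, -1.79 to -0.87, -2.60 to -1.76, -1.23 to -0.84 and -2.33 to -1.67. Rbpjl had a higher NOD than reference signal on 23 of 27 arrays, with a log2 ratio of 0.48 ± 0.12 over all ages (adjusted p = 0.0019), under the 2-fold limit. At 10 days its log2 ratio was 1.39 ± 0.28 (adjusted p = 0.0016, higher on 5 of 5 arrays), the single call of that age among the 33, and without replicate 5 none of the 33 was called there.

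Bhlha15 was in NOD at -2.19, -2.13, -1.62, -2.03 and 0.14 at 10 days and at -0.74, -0.34, -0.35, -0.56 and -1.55 at 4 weeks. It read -1.16, -0.96 and -0.87 at 8 weeks and -1.27, -1.22, -1.14, -0.77 and -0.97 at 12 weeks. The 16-week samples had -0.08, -0.29, -0.81 and -0.50, and the 20-week samples -0.63, -0.92, -1.1, -1.12 and -0.77. Replicate 5 of 10 days was above the other 4 of its age, and replicate 5 of 4 weeks below the other 4. Its reference ran from -2.65 to -1.98, -1.53 to -0.60, -0.88 to -0.49, -1.58 to -1.09, -0.70 to -0.19 and -0.71 to -0.52, and the ratio did not pass (log2 0.07 ± 0.09, adjusted p = 0.53). The 2 Bhlha15 probes correlated at only r = 0.14 in NOD.

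Ptf1a was dim, well above background on 24 of 27 arrays in NOD and on 10 in the reference, and on no reference array of 20 weeks. In NOD it read -2.83, -2.67, -3.62, -4.10 and -2.21 at 10 days and -2.74, -2.64, -2.33, -2.57 and -2.66 at 4 weeks. It read -3.23, -3.0 and -2.35 at 8 weeks and -3.28, -3.53, -3.17, -2.60 and -3.59 at 12 weeks. Levels of -2.40, -3.29, -1.87 and -3.84 were read at 16 weeks and -5.0, -2.58, -3.94, -2.92 and -2.92 at 20 weeks. Replicate 1 of 20 weeks, the highest array for 17 of the 33 genes, was the lowest for Ptf1a. Reference values ran from -4.56 to -2.56, -3.17 to -2.81, -3.05 to -2.47, -4.12 to -2.89, -3.13 to -2.01 and -3.95 to -3.01, and the ratio did not pass (log2 0.16 ± 0.10, adjusted p = 0.16).

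Co-variation was strong in NOD within ages and weak in the reference. Over the 528 pairs of the 33 genes, Pearson's r across 27 arrays had a median of 0.82 in NOD and 0.87 in the reference. With each age centred on its mean, so that only differences between arrays of 1 age count, the median was 0.87 in NOD and 0.26 in the reference, and the first principal component held 80.55% and 39.97% of the variance. Without the 2 arrays farthest from the median the centred values were 0.83 and 0.20. These correlations describe the arrays, whose points share labelling, scan day and the scaling within the array. In NOD the genes that followed the others most closely were Prss2 (r = 0.99), Ctrc (0.99), Prss3 (0.99) and Zg16 (0.99), each against the mean of the other members. Ptf1a (0.14), Bhlha15 (0.49), Erp27 (0.51) and Rbpjl (0.57) followed least.

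**Figure D4:**
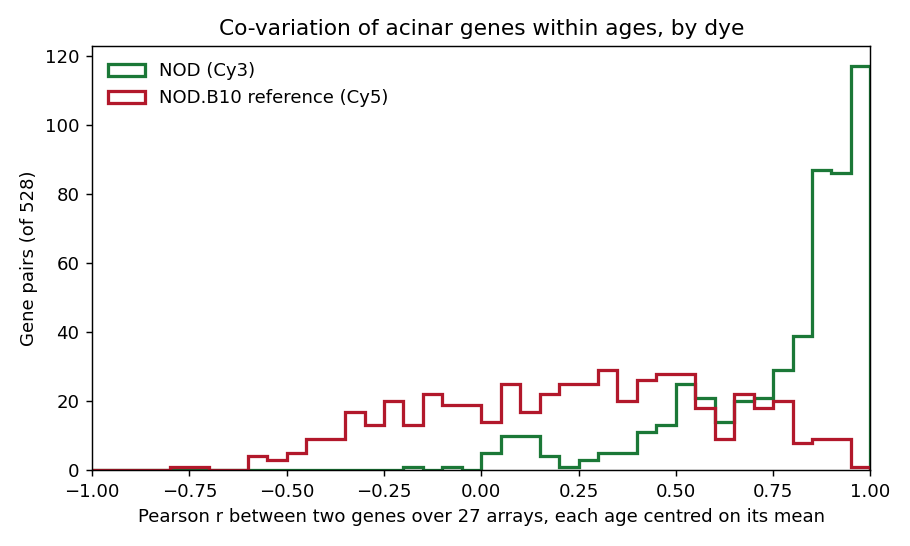
Pearson's r between 2 acinar genes over 27 arrays after each age was centred on its mean, for all 528 gene pairs, as the number of pairs per bin; NOD in green and the NOD.B10 reference in red. The NOD pairs gather near the right end (median 0.87), and the reference pairs spread widely around a median of 0.26.

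Among genes that are not members, those close to the mean acinar level over the 27 NOD samples included Reg1 (r = 0.96), a secreted pancreatic lectin, Dmbt1 (0.91), Tff2 (0.89), a trefoil peptide, and Klk1b3 (0.88), a kallikrein. In the reference they included Dmbt1 (0.98), Tff2 (0.98), Reg1 (0.94) and Reg2 (0.93), and also Vtn (0.93), Sult1a1 (0.90) and Ramp3 (0.90). With each age centred on its mean, the reference r was 0.52 for Dmbt1, 0.69 for Tff2, 0.71 for Reg1 and 0.67 for Reg2. It was -0.08 for Vtn, 0.78 for Sult1a1 and 0.25 for Ramp3. Lists of other cells were set beside these. The median r of a list's genes with the acinar mean in NOD was 0.66 for 19 other exocrine pancreas genes, 0.07 for 10 duct genes, -0.03 for 17 islet genes, -0.16 for 10 fat genes and 0.03 for 6 mesothelium genes. It was -0.01 for 9 salivary gland genes, -0.06 for 9 intestine and stomach genes, 0.30 for 5 liver genes, -0.11 for 17 spleen genes, -0.04 for 8 plasma cell genes and 0.39 for 7 erythroid genes. In the reference these medians were 0.82 for other exocrine pancreas, 0.53 for plasma cell, 0.46 for fat and 0.32 for spleen genes. They were 0.19 for mesothelium, 0.11 for salivary gland, 0.10 for liver and 0.06 for islet genes. Intestine and stomach genes were at -0.03, duct genes at -0.05 and erythroid genes at -0.195. Differences between ages enter all these values.

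The islet hormones did not follow the enzymes closely. In NOD, Ins1 ran from -4.20 to -1.24, Ins2 from -4.69 to 1.01 and Gcg, glucagon, from -4.59 to -1.72 over the 27 arrays. On replicates 1 and 5 of 20 weeks, high for the acinar genes, Ins2 was at -2.79 and -4.38, and the summed islet list at 1.19 and 1.26 against a median of 2.20. On replicate 5 of 10 days Ins2 was at 1.01, the highest of all, and the liver genes Ahsg and Alb were at 8.73 and 6.84. On replicates 1 and 5 of 20 weeks Ahsg was at -3.69 and -4.12. The correlation of the liver list above includes 10 days replicate 5 and is not given without it. Summed over their list, duct genes ran from 3.51 to 7.78, fat genes from 3.77 to 6.18 and spleen genes from 7.25 to 9.26 in NOD, with Pearson's r of 0.40, -0.20 and -0.19 to the acinar median over 27 arrays. In the reference these 3 correlations were -0.31, 0.54 and 0.39. The part of duct, fat, liver or erythroid RNA in the acinar values was not tested.

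As ratios of NOD over reference, the acinar genes were lower over the mean of the 6 ages for 18 of 33 genes and higher for none, with a median log2 of -1.24; 0.709% of all genes were called, 0.507% lower. The estimate was below 0 for 29 of 33. With the scan campaign as a block none of the 33 was called and the median was -0.86. The single ages differed. At 8 weeks 14 of 33 were lower (median -3.95), where 1.98% of all genes were lower, 0.361% higher and 2.34% either. At 16 weeks 27 of 33 were lower (median -3.62), where 4.48% of all genes were lower, 1.76% higher and 6.25% either. All 33 estimates were below 0 at both ages. By contrast, 32 of 33 were above 0 at 10 days and 33 of 33 at 4 weeks. The ratios over all ages thus join opposite signs. At 10 days 1 of 33 was called, Rbpjl, and at 4 weeks 1, Tmed6, a cargo receptor of the secretory pathway, both higher, with medians of 1.06 and 0.72. Of all genes 1.07% were called at 10 days (0.424% higher, 0.65% lower) and 2.47% at 4 weeks (1.61% higher, 0.86% lower). The Tmed6 reference was well above background on 1 of 5 arrays, and its call was lost under 17 of the 27 omissions of 1 array. None was called at 12 weeks (median -0.40, all genes 5.86% in either direction, 2 of 33 at an unadjusted p under 0.05) or at 20 weeks (median -1.18, all genes 12.2%, 4 of 33), by limma with Benjamini-Hochberg adjustment. No alternative called any at 12 weeks. At 20 weeks 3 were called without replicate 1, 2 without replicate 5, and 1 without 10 days replicate 2 or 5.

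**Figure D5:**
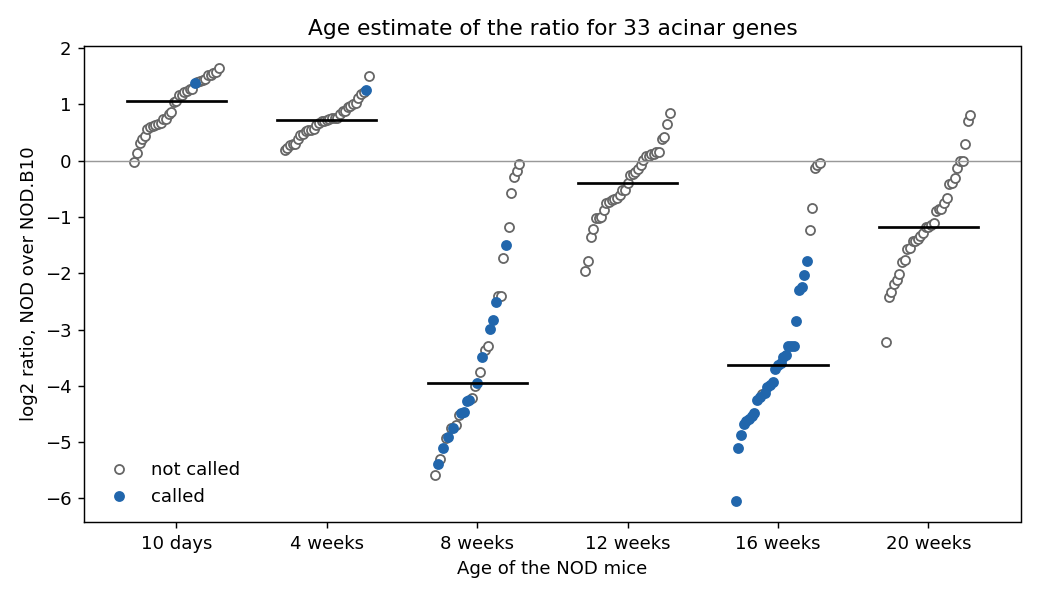
Log2 ratio of NOD over NOD.B10 at each age for the 33 acinar genes, 1 point per gene in rising order, filled where called (limma adjusted p under 0.05 and at least 2-fold) and open where not; bars give the median. All 33 points lie below 0 at 8 and 16 weeks, and called points are found there, with 1 each at 10 days and 4 weeks.

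The counts at 8 and 16 weeks rested on few arrays. Without replicate 1 or without replicate 3 of 8 weeks none of the 33 was called there, without replicate 2 there were 5, and without 10 days replicate 5 there were 24. At 16 weeks 7 were called without replicate 2 and 10 without replicate 4. With the scan campaign as a block none was (median -5.48), and within the campaign that held all 16-week arrays 24 were. The share of all genes called in that last fit is not given here, so the count of 24 has no background beside it. The 3 arrays of 8 weeks came from 3 scan campaigns. A ratio depends on both dyes. The medians of the 33 genes in the reference were 3.52 to 4.51 at 8 weeks and 4.90 to 5.27 at 16 weeks. In NOD they were -0.52 to 1.57 and -0.47 to 3.70. No age difference of the NOD dye was called, but NOD arrays of the same age varied widely, so this does not show a constant NOD level. The part of each dye in the calls was not tested.

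Over the 6 ages the ratio changed for 21 of 33 genes (63.64%) by limma F test. This was close to the share of all genes (57.8%), so the count does not set the acinar genes apart. By role, the 21 were 3 of 5 trypsinogens and inhibitor, 6 of 10 other proteases, 3 of 6 lipases and cofactor, 2 of 3 amylases and ribonuclease, 6 of 6 granule and secretory pathway genes and 1 of 3 transcription factors. Lists of other cells at 16 weeks gave 11 of 19 other exocrine pancreas genes lower. Of the rest, 1 of 10 duct, 1 of 17 islet, 1 of 9 intestine and stomach and 1 of 7 erythroid genes were lower, 1 of 6 mesothelium genes was lower and 1 higher, and 2 of 10 fat and 5 of 17 spleen genes were higher. At 8 weeks 5 of 19 other exocrine pancreas genes, 1 of 10 fat and 1 of 6 mesothelium genes were lower, and none of the other lists had a call at that age.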

How the data were processed

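Both dyes of 27 Agilent whole mouse genome arrays of spleen RNA were used. Per the submitters' processing notes, images were read with Agilent Feature Extraction 8.5; per the file headers, with 8.5.1.1 (19 arrays), 8.1.1.1 (6) and 9.1.3.1 (2). Per the file headers, the deposited processed signal intensity was background-subtracted with a spatial trend and dye-normalised within the array (linear and LOWESS), and signals not above background are surrogates. The deposited 0 or 1 quality marks gave saturation, outliers and signals well above background. The deposited log10 ratio of the value table equalled the turned log10 ratio of the scanner files within 5e-05.

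Log2 ratios of NOD over reference were averaged over a probe's spots, outlier spots left out. Probes well above background in either dye throughout at least 1 age group were kept (36015 of 41174), and the brightest probe stood for a gene. RefSeq (GRCm38.p6) matched 22161 probes by accession, 143 by another accession, 5025 by symbol and 4339 by synonym; 9506 had none. limma 3.58.1 (R 4.3.3) fitted 6 age means to all genes; a ratio was called when at least 2-fold and under 0.05 after Benjamini-Hochberg adjustment, F tests at the adjusted p alone. It was tested on simulated data. Scan campaigns are runs of scan days less than 20 days apart. Named with every value are the 2 brightest genes of each role and the 3 transcription factors, reference values as ranges. The members and the 11 lists of other cells were chosen with earlier results of these data known. The number of arrays limits precision. One gene outside the members is not reported here.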

Additional observations from a re-analysis of the deposited data

Results flagged for a closer look

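In 145 groups of 4 or 5 arrays (a gene, a dye and an age), 4 had an array far from the others by Dixon's test, where chance flags about 1 in 20. Sycn in the reference was at 2.85 on 10 days replicate 4, above the other 4 (0.94 to 1.33). Bhlha15 in NOD was at 0.14 on 10 days replicate 5, above the other 4. Rbpjl in NOD was at -2.20 on 12 weeks replicate 1 and, in the reference, at -2.33 on 20 weeks replicate 1, the lowest of its age both times. The log2 ratio differed between the 6 ages for 21 of 33 acinar genes (limma F test, adjusted p under 0.05), close to the 57.8% of all genes. The change of the reference over the ages passed for 33 of 33 and that of NOD for none.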

How the results depend on the processing

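Direction held throughout: the median log2 ratio of the 33 acinar genes over all ages was -1.36 to -0.73 under 9 other settings and -1.39 to -1.06 with each array left out in turn, and no single gene's called ratio turned sign. Of the single genes' calls, 18 were lost with the scan campaign block, 4 with normexp and 1 with the mean of probes. Members called over all ages (18) fell to 0 with the scan campaign block. With that block 0 were called at 4 weeks and at 16 weeks and 2 in the NOD dye. All arrays of 4, 16 and 20 weeks lay in 1 campaign per age, so age and campaign can be told apart only in part. A lost call need not mean a smaller estimate. Prss2 at 16 weeks was at -3.98 without the block (limma adjusted p = 0.018) and at -5.53 with it (0.40). The cause of the lost calls was not tested. Normexp with loess gave 0 at 4 weeks, 23 at 8 weeks and 3 in the NOD dye. With no filter on dim probes 0 were called at 4 weeks. Among 28 members with a probe well above background in at least 1 dye on each of the 27 arrays, 2 were called at 10 days, 0 at 4 weeks, 1 at 20 weeks and 1 in the NOD dye. The mean of probes gave 1 in the NOD dye. No fold minimum gave 2 at 10 days and 2 at 20 weeks.

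Within scan campaign 1, 0 members were called at 10 days and 0 at 4 weeks, 0 for the ratio over ages, 1 in the NOD dye and 19 in the reference. Within campaign 2, 0 were called at 8 weeks and 0 for the ratio over ages; within campaign 3, 0 for the ratio over ages; within campaign 4, 0 at 10 days, 0 at 8 weeks, 0 for the ratio and 1 in the NOD dye. An age with 1 array in a campaign was assumed to vary like the others. With each array left out, the counts were 17 to 19 over all ages, 0 to 4 at 10 days, 0 to 1 at 4 weeks, 0 to 24 at 8 weeks, 0 at 12 weeks, 7 to 29 at 16 weeks, 0 to 3 at 20 weeks, 18 to 29 for the ratio over ages, 32 to 33 for the reference and 0 to 3 for NOD (3 without 10 days replicate 5).

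The replicate numbers share only a number: over 61 same-numbered pairs of arrays the correlation of deviations was -0.21 to 0.18, and 5 of 27 arrays matched their own number best. With the replicate block, 0 members were called at 4 weeks (1 without it), 13 at 8 weeks and 26 at 16 weeks. Saturation in the reference on all arrays of 8, 16 and 20 weeks limits Amy1.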
